A study of Mus musculus with 18 samples.

Results

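The genes that mark regulatory T cells and the receptors and ligands that restrain T cell responses were followed in colon RNA during the colitis of mice without interleukin 10. Of 10 genes listed by symbol, 9 were present among the 16321 genes of the gene tables: Foxp3, Il2ra, Icos, Pdcd1, Cd274, Pdcd1lg2, Lag3, Tigit and Havcr2. The tenth, Ctla4, was found only in the transcript tables. The tissue was distal colon of BALB/c mice, and polyadenylated RNA had been sequenced from 3 mice in each of 6 groups, 18 libraries in all. The groups were Il10KO at weeks 6, 8, 10, 12 and 14 of age and wild type at week 6. How the Il10 allele was inactivated and the sex of the mice are not given in the sources used here, and each mouse was sampled at 1 age. Wild-type mice older than week 6 were not analysed here, so a change with age in Il10KO colon cannot be told apart from growth.

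Regulatory T cells are CD4 T cells that hold immune responses in check, and in the colon they are maintained by contact with gut microbes and are a source of interleukin 10. Their lineage is set by the transcription factor FOXP3, and they carry high levels of the interleukin 2 receptor alpha chain (Il2ra), CTLA4 and ICOS. Checkpoint receptors such as PD-1 (Pdcd1), LAG3, TIGIT and TIM-3 (Havcr2) appear on activated T cells and dampen signalling from the T cell receptor. The ligands of PD-1, PD-L1 (Cd274) and PD-L2 (Pdcd1lg2), are made by myeloid cells and, for PD-L1, also by epithelium and stroma under interferon gamma. A biopsy mixes all of these cells, so fewer cells of a type and less RNA per cell cannot be told apart.

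Library totals lay between 26495521 and 35497101 estimated counts. Il10 itself had 0 counts in all 15 Il10KO libraries, against 1, 0 and 3 counts in the wild-type libraries, a level too low to check the genotype from this gene alone. The 3 mice of week 14 differed widely. Week 14 replicates 2 and 3 had RNA integrity numbers (RIN) of 6.5 and 5.8, whereas the RIN was 8.4 or higher in all other libraries. S100a8, a neutrophil gene, stood at 0.158, 9273 and 5436 CPM (counts scaled to library size and its TMM normalisation factor) in the 3 libraries of week 14, and at 2983, 80.4 and 10.8 CPM in those of week 10. The normalisation factors of week 14 replicates 2 and 3 were 0.581 and 0.680, against 0.875 to 1.19 in the other libraries. Results of week 14 are given with and without them.

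The largest movements among the listed genes were in PD-1 and its ligands. In Il10KO colon, Cd274, Pdcd1 and Pdcd1lg2 were 14.9, 12.9 and 9.12 times as high at week 10 as at week 6. The folds of Pdcd1 and Pdcd1lg2 are imprecise, as their counts at week 6 totalled only 14 and 21 over 3 libraries. In mean TPM the 3 genes went from 3.19 to 31.0, from 0.124 to 1.03 and from 0.227 to 1.34. Icos and Il2ra rose with them, and Foxp3, Lag3, Tigit and Havcr2 passed the test at no age. Pdcd1 was also called at week 12. Icos, Pdcd1, Cd274 and Pdcd1lg2 were called at week 14, but not without the libraries of low RIN (adjusted p = 1, edgeR). Below, a level is in CPM scaled to effective library size (TMM), and a difference is a log2 change ± SE from 1 edgeR quasi-likelihood model of all 18 libraries with 3 per group. A gene is called when its p adjusted by Benjamini-Hochberg over all 16300 genes tested is under 0.05. The SE comes from a spread that the model shares over groups, not from the 3 mice of one group. Each library came from its own mouse, so the spread between replicates is that between mice.

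**Figure D1:**
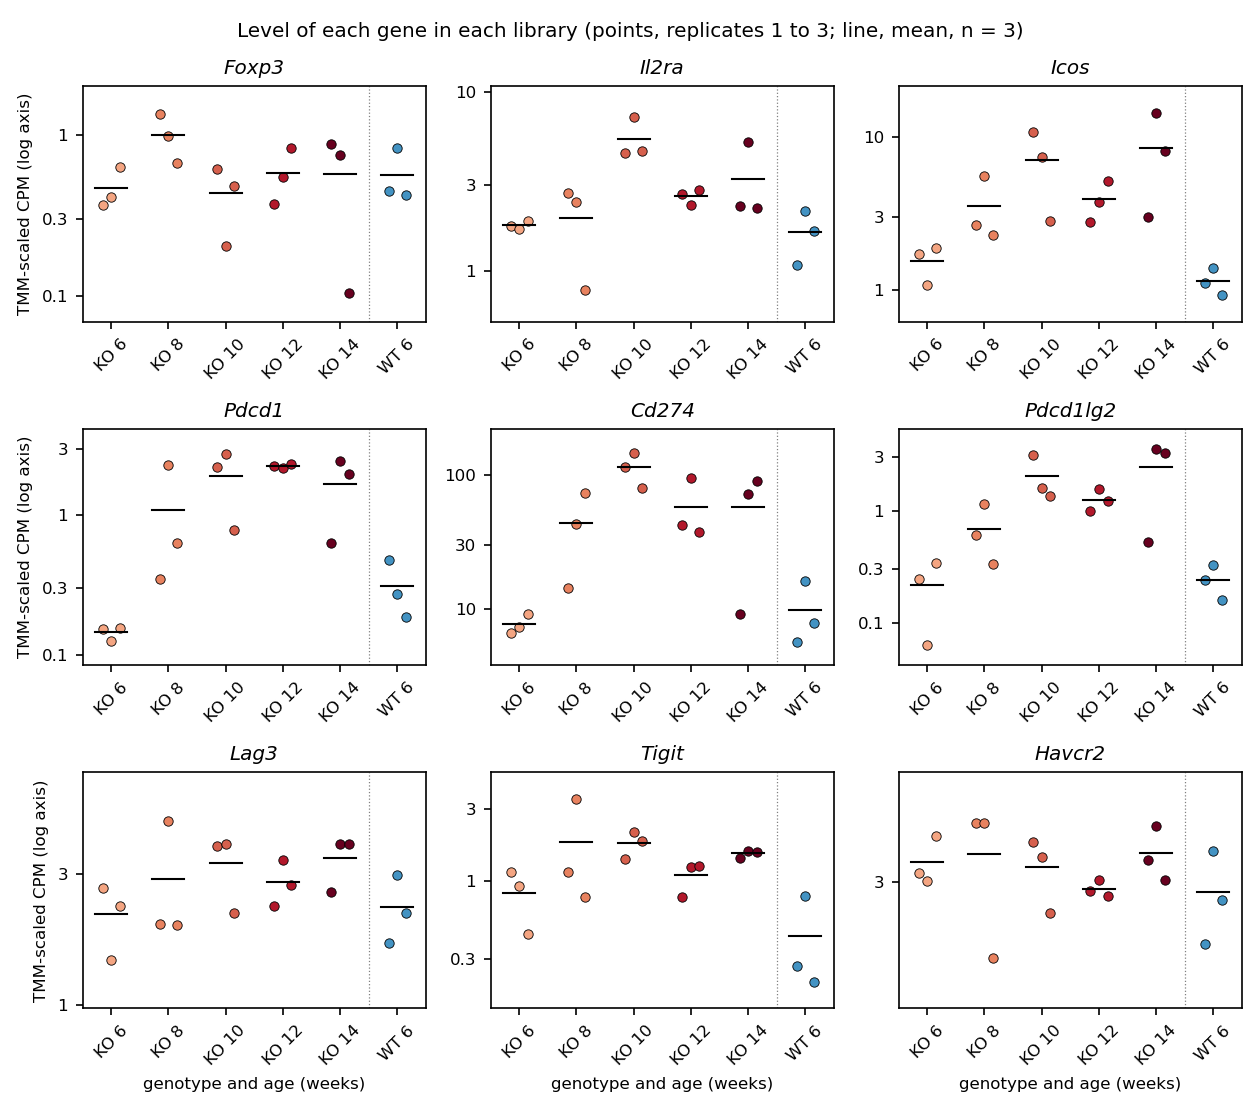
TMM-scaled CPM of the 9 genes in each of 18 libraries on log axes, by genotype (KO, Il10KO; WT, wild type) and age in weeks. Points are libraries and lines are group means (n = 3). Cd274 lies between 79.3 and 146 CPM at week 10, above all 3 libraries of week 6, whereas Foxp3 and Havcr2 overlap between these ages.

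Foxp3 was the scarcest of the 9 genes per transcript length at weeks 8 to 14, with group means of 0.173 to 0.627 TPM. Its counts were small, between 2 and 42 per library. Foxp3 had 0.367, 0.411 and 0.627 CPM for week 6 in Il10KO colon, 1.33, 0.974 and 0.666 for week 8, 0.615, 0.205 and 0.482 for week 10, 0.372, 0.545 and 0.828 for week 12, and 0.869, 0.749 and 0.104 for week 14, against 0.450, 0.821 and 0.425 CPM in the wild type. The ranges overlapped between week 6 and every later age except week 8, where the lowest library stood just above the highest of week 6. In TPM week 8 overlapped it too, at 0.367 to 1.05 against 0.242 to 0.369. The difference of week 8 over week 6 was 1.08 ± 0.61 (adjusted p = 0.761, edgeR), and week 10 over week 6 gave -0.11 ± 0.63 (adjusted p = 0.896, edgeR). Foxp3 did not pass the test at any age, nor across the 5 ages (adjusted p = 0.377, edgeR). At this depth a change in Foxp3 of the size of these standard errors was not detectable.

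Il2ra, the high-affinity subunit of the interleukin 2 receptor, is carried by regulatory T cells and by recently activated effector cells. It had 4.53, 7.20 and 4.67 CPM at week 10, against 1.77, 1.71 and 1.91 CPM at week 6. All libraries of week 10 lay above all of week 6, and the difference of 1.60 ± 0.45 was called (adjusted p = 0.0243, edgeR). Week 8 gave 2.73, 2.42 and 0.777 CPM, week 12 gave 2.69, 2.33 and 2.84, week 14 gave 2.32, 5.24 and 2.23, and the wild type 1.08, 2.16 and 1.67. Only week 10 over week 6 was called among the comparisons of 2 ages; that call ended when week 10 replicate 1 (adjusted p = 0.0504, edgeR), week 10 replicate 2 (0.0770) or any 1 library of week 6 (0.0685 to 0.0811) was left out. With the other settings tried the adjusted p of this difference ran from 0.00274 to 0.110.

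Ctla4, which competes with CD28 for the B7 ligands, was close to undetected. Its transcripts summed to 8.21 estimated counts over the 18 libraries, with 1, 1 and 0 in Il10KO for week 6, 2.55, 0 and 1 for week 8, 0 in all libraries of weeks 10 and 12, 0, 2.66 and 0 for week 14, and 0 in the 3 wild-type libraries. The 13 libraries at 0 allow up to 3 counts each, or 0.0840 to 0.110 CPM of the unscaled library totals, for counting error only. The gene falls below the total of 50 counts that all genes in the gene tables reach, so no test was made.

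Icos, a co-stimulatory receptor of activated and regulatory T cells, had 10.8, 7.41 and 2.83 CPM at week 10, against 1.71, 1.07 and 1.88 CPM at week 6. In CPM every library of weeks 8, 10, 12 and 14 lay above the 3 of week 6, as did 11.1% to 32.8% of all genes at single ages. Those of week 8 had 2.66, 5.58 and 2.29 CPM. Those of week 12 had 2.78, 3.78 and 5.16, and those of week 14 had 2.98, 14.3 and 8.10. In TPM only week 10 lay apart from week 6, whose highest library had 1.36 TPM. The lowest libraries of weeks 8, 12 and 14 had 1.24, 0.919 and 1.22 TPM. The wild type had 1.11, 1.40 and 0.931 CPM. Icos was called for week 10 (2.17 ± 0.57, adjusted p = 0.0193, edgeR) and for week 14 (2.43 ± 0.58, adjusted p = 0.00747), and not for week 12 (1.33 ± 0.56, adjusted p = 0.130). Without week 10 replicate 1, the call at week 10 was lost (adjusted p = 0.0877, edgeR), as it was without any 1 library of week 6 (0.0538 to 0.0737). Other settings gave 0.00158 to 0.127.

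Pdcd1 encodes PD-1, the inhibitory receptor of activated T cells. It had 2.23, 2.76 and 0.783 CPM at week 10, against 0.153, 0.126 and 0.157 CPM at week 6. The libraries of week 8 had 0.349, 2.30 and 0.629 CPM, those of week 12 had 2.26, 2.18 and 2.33, and those of week 14 had 0.632, 2.43 and 1.97. All 12 libraries after week 6 lay above the 3 of week 6, which held only 4 or 5 counts of Pdcd1 each. At single ages 11.1% to 32.8% of all genes were set apart from week 6 in this direction. The wild type, at 0.480, 0.274 and 0.186 CPM, was also above the Il10KO mice of the same age in all 3 libraries, with a difference of -1.08 ± 0.77 that was not called (adjusted p = 1, edgeR). Pdcd1 was the single listed gene called at each of weeks 10, 12 and 14, with differences over week 6 of 3.69 ± 0.76, 3.92 ± 0.76 and 3.47 ± 0.76 (adjusted p = 0.00736, 0.0309 and 0.00616, edgeR). At week 10 the call held with each library left out in turn (adjusted p = 0.000765 to 0.0408, edgeR). At week 12 it was lost without any 1 library of week 6 or of week 12 (adjusted p = 0.0581 to 0.161, edgeR); other settings gave 3.91e-05 to 0.0729.

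Cd274 encodes PD-L1, and was the most abundant of the 9 genes in TPM in each group. It had 115, 146 and 79.3 CPM at week 10, against 6.52, 7.30 and 9.05 CPM at week 6. At week 8 its levels were 14.2, 43.2 and 72.9 CPM, at week 12 they were 41.8, 94.4 and 37.4, and at week 14 they were 9.14, 72.4 and 90.5, with 5.66, 16.0 and 7.74 in the wild type. Every library after week 6 was above the 3 of week 6 in CPM, but week 14 replicate 1 only by a small margin over the highest of them. In TPM week 14 replicate 1, at 3.49, lay below the highest of week 6, at 3.85. Cd274 rose at week 10 by 3.90 ± 0.76 (adjusted p = 0.00596, edgeR) and at week 14 by 2.91 ± 0.73 (adjusted p = 0.00929). At week 12 the difference of 2.92 ± 0.73 missed the threshold (adjusted p = 0.0521, edgeR). In order of mean level the groups were week 10, week 12, week 14, week 8, wild type and week 6, and the ranges of each pair of neighbours in this order overlapped. The call at week 10 held under all 12 other settings and with each of 18 libraries left out (adjusted p at most 0.0422 and 0.0384, edgeR).

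Pdcd1lg2 encodes PD-L2, the second ligand of PD-1, which is mostly made by dendritic cells and macrophages. It had 3.11, 1.60 and 1.35 CPM at week 10, against 0.245, 0.0632 and 0.345 CPM at week 6. Those of week 6 rested on 8, 2 and 11 counts. The libraries of week 8 had 0.603, 1.15 and 0.333 CPM, those of week 12 had 1.00, 1.56 and 1.21, those of week 14 had 0.527, 3.56 and 3.27, and those of the wild type 0.240, 0.328 and 0.160. From week 10 on all libraries lay above week 6, while week 8 overlapped it. The rise was called at week 10 (3.19 ± 0.74, adjusted p = 0.0121, edgeR) and week 14 (3.45 ± 0.74, adjusted p = 0.00616), and not at week 12 (2.51 ± 0.73, adjusted p = 0.0771). Leaving out week 6 replicate 1 or 2 ended the call at week 10 (adjusted p = 0.0513 and 0.0518, edgeR); other settings gave 0.000209 to 0.0893.

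Cd274 and Pdcd1lg2 are neighbours on the plus strand of chromosome 19, at chr19:29367455-29388095 and chr19:29410919-29471161 of GRCm38 (mm10), and Pdcd1 is on the minus strand of chromosome 1, at chr1:94038305-94052553. The promoters of these 3 genes, which moved furthest, are shown with that of the second RefSeq start of Foxp3, which did not pass the test. Each line gives the 250 bases before the start of transcription in RefSeq on GRCm38.p6, 5′ to 3′ on the strand of the gene, for chr19:29367188-29367437 (Cd274), chr19:29410669-29410918 (Pdcd1lg2), chr1:94052554-94052803 (Pdcd1) and chrX:7580233-7580482 (Foxp3). Capitals mark matches to 5 motifs searched on both strands: GAS (TTCNNNGAA), an ISRE core (GAAA, 2 free bases, GAAA), a kappaB site (GGGA, 2 free bases, TTCC), AP-1 (TGANTCA) and an NFAT core (GGAAAA).
Cd274: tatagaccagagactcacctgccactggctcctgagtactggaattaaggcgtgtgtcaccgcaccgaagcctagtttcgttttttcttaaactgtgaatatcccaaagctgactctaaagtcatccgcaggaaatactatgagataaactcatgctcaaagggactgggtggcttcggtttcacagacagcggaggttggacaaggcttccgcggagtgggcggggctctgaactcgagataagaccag
Pdcd1lg2: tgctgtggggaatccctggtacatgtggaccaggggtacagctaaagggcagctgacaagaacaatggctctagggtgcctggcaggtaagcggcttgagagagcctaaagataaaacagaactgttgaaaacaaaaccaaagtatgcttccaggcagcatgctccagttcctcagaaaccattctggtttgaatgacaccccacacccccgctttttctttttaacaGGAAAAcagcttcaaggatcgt
Pdcd1: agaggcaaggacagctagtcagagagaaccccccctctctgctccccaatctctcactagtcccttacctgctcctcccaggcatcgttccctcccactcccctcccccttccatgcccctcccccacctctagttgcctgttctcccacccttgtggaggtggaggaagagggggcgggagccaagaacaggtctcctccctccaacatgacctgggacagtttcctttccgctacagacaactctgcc
Foxp3: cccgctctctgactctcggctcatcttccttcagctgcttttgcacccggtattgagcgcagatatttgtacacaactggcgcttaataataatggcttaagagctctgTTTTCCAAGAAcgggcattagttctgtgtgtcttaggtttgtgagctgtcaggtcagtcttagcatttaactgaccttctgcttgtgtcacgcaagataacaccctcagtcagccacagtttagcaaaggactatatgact
The windows of Cd274 and Pdcd1 held none of these letters, and that of Pdcd1lg2 held 1 NFAT core from 22 to 17 bases before its start. The Foxp3 window held a GAS match, TTCCAAGAA, which overlaps an NFAT core read on the other strand. Counting to 50 bases past the start, GAS letters were in 8.29% of 32817 RefSeq promoters, ISRE letters in 3.43%, kappaB letters in 1.47%, AP-1 letters in 7.81% and NFAT letters in 23.3%. Of the listed genes, 8 had a promoter in the table; Icos and Lag3 had none. The Havcr2 window held 1 AP-1 match, and those of Ctla4 and Tigit held 1 NFAT core each. That of the first RefSeq start of Foxp3, at chrX:7579426-7579675, held none of these letters.

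Lag3, an inhibitory receptor that binds MHC class II, had 3.80, 3.86 and 2.17 CPM at week 10, against 2.66, 1.45 and 2.29 CPM at week 6. The difference was 0.62 ± 0.40 (adjusted p = 0.234, edgeR), and the ages overlapped. Its libraries had 1.97, 4.69 and 1.96 CPM in week 8, 2.29, 3.38 and 2.74 in week 12, 2.58, 3.87 and 3.84 in week 14, and 1.68, 2.98 and 2.15 in the wild type. Every one of these groups overlapped the Il10KO libraries of week 6 for Lag3. Tigit, an inhibitory receptor of T and NK cells that binds CD155, had 1.38, 2.12 and 1.84 CPM at week 10, against 1.13, 0.917 and 0.439 CPM at week 6. All 3 libraries of week 10 were above those of week 6, but the difference of 1.10 ± 0.57 was not called (adjusted p = 0.146, edgeR). Tigit had 1.14, 3.48 and 0.777 CPM in week 8, 0.773, 1.24 and 1.24 in week 12, and 1.42, 1.56 and 1.56 in week 14, with 0.270, 0.794 and 0.213 CPM in the wild type. Week 8 replicate 2 had its highest level, and week 14 lay above week 6 in all 3 libraries. Both week 10 and week 14 overlapped week 6 for Tigit in TPM. Havcr2 encodes TIM-3, which is found on T cells and, at rest, on dendritic cells and macrophages. It had 4.15, 3.69 and 2.35 CPM at week 10, against 3.24, 3.04 and 4.35 CPM at week 6, a difference of -0.06 ± 0.40 (adjusted p = 0.909, edgeR). The libraries of week 8 had 4.85, 4.84 and 1.63 CPM of Havcr2, those of week 12 had 2.81, 3.05 and 2.68, those of week 14 had 3.58, 4.74 and 3.06, and those of the wild type 1.83, 3.86 and 2.61. Over all 6 groups the mean of Havcr2 stayed between 2.76 and 3.80 CPM and that of Lag3 between 2.13 and 3.43 CPM. The test across the 5 ages gave adjusted p of 0.558 for Lag3, 0.338 for Tigit and 0.852 for Havcr2 (edgeR).

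At week 6, none of the 9 genes was called between Il10KO and wild type by edgeR's quasi-likelihood test, and percent called was 0% of all genes. None of the 9, and 394 of 16300 genes, had an unadjusted p under 0.05, and DESeq2 and limma called none of the 9 either. The differences of Il10KO over wild type ran from -1.08 ± 0.77 for Pdcd1 to 0.95 ± 0.59 for Tigit. All Il10KO libraries lay below all wild-type libraries for Pdcd1, as they did for 13.1% of all genes. Tigit had 1.13, 0.917 and 0.439 CPM in Il10KO colon, against 0.270, 0.794 and 0.213 CPM in wild type, and the groups overlapped.

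Week 8 was higher than week 6 for 9 of 9 genes in the fit, but edgeR called none of them, with 0.0675% of all genes called. An unadjusted p under 0.05 was reached by Pdcd1 (2.88 ± 0.75), Cd274 (2.51 ± 0.71) and Pdcd1lg2 (1.67 ± 0.73). DESeq2 called Pdcd1 and Cd274, and limma on log2 TPM called none of the 9. The median difference over the 9 genes was 1.12, beside 0.03 over all genes tested.

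At week 10, 5 of 9 genes were called higher than at week 6 and none lower, with 24% of all genes called, 14.6% higher and 9.48% lower. The median over the 9 genes was 1.60, beside 0.01 over all genes. At week 12 only Pdcd1 was called, with 1.85% of all genes called and 1.36% called higher, and the medians were 0.54 for the 9 genes and 0.00283 for all genes. At week 14 the count was 4 of 9, all higher, with 33.1% of all genes called, 24.5% higher and 8.56% lower. The share of genes called depended on a few libraries: without the 2 libraries of low RIN it was 51.4% for week 10, 40.8% for week 12 and 0% for week 14, and of the 9 genes 5, 4 and 0 were called. Without week 14 replicate 1 alone, 4 of the 9 were called for week 12, with 40.3% of all genes called. Without 1 library of Il10KO week 6, 2 or 3 of the 9 were called for week 10, with 4.7% to 6.76% of all genes, and 0 for week 12, with at most 0.00613%. Without week 10 replicate 1, 3 of the 9 were called at week 10, with 6.68% of all genes. The libraries of Icos, Pdcd1, Cd274, Pdcd1lg2, Il2ra and Tigit at week 10 all lay above those of week 6, 6 genes of 9, beside 27.5% of all genes. For week 8 this held for 4 of the 9, beside 11.1% of all genes. For week 12 it held for 5, beside 32.8%, and for week 14 for 6, beside 19.2%. These counts are in CPM scaled by TMM. Among these genes, Foxp3 and Icos overlapped week 6 in TPM at week 8, and Tigit at week 10. In TPM, Icos and Il2ra did so at week 12, and Icos, Il2ra, Cd274 and Tigit at week 14. The shares of all genes were not counted in TPM. Across the 5 ages, 5 genes were called, with 27.4% of all genes called: Pdcd1 (adjusted p = 0.0182), Cd274 (0.0205), Pdcd1lg2 (0.0205), Icos (0.0312) and Il2ra (0.0478). Of these the call of Il2ra held in 3 of 18 fits with 1 library left out, that of Icos in 11, and that of Pdcd1lg2 in 14. The calls of Pdcd1 and Cd274 across ages held in 15 of the 18, and were lost without replicate 1, 2 or 3 of Il10KO week 6.

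**Figure D2:**
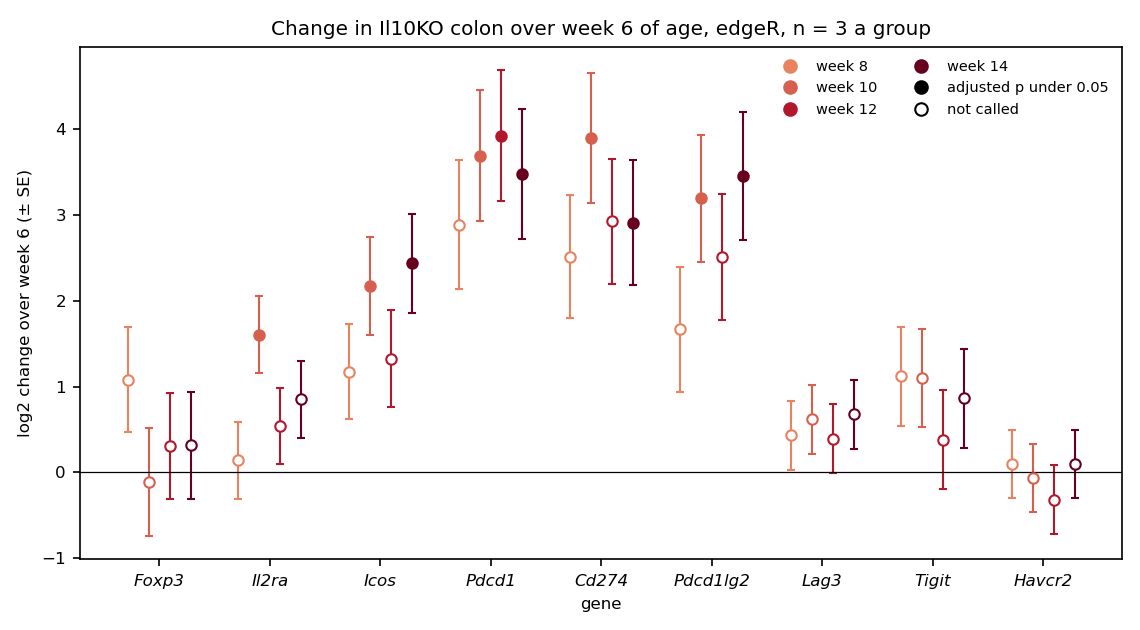
Log2 change over week 6 ± SE of 9 genes in Il10KO colon at weeks 8, 10, 12 and 14 (edgeR, 3 libraries a group). Filled points have an adjusted p under 0.05: 5 genes for week 10, 1 for week 12 and 4 for week 14, all above 0, and none for week 8.

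Consecutive ages gave no call among the 9 genes by edgeR from week 8 to week 14. Week 10 over week 8 had 0.196% of all genes called, 0.117% higher and 0.0798% lower; Il2ra was 1.46 ± 0.45 and Pdcd1lg2 1.52 ± 0.67 higher, both with an unadjusted p under 0.05. DESeq2 called 1 of the 9 genes there and limma none. Week 12 over week 10 had 0.448% of all genes called, 0.209% higher and 0.239% lower, and 7 of 9 differences were below 0; Il2ra was at -1.06 ± 0.44 and was the only gene with an unadjusted p under 0.05. Week 14 over week 12 had 0.00613% of all genes called and no listed gene with an unadjusted p under 0.05. DESeq2 and limma called none of the 9 in the last 2 comparisons.

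In CPM the levels of week 14 were higher in replicates 2 and 3 than in replicate 1 for PD-1 and its ligands. For Pdcd1 this rested on the scaling: replicates 1, 2 and 3 had 0.492, 0.488 and 0.533 TPM. Cd274 had 9.14 CPM in replicate 1, close to its level at week 6, against 72.4 and 90.5 CPM in replicates 2 and 3, and Pdcd1lg2 had 0.527 against 3.56 and 3.27 CPM. With replicate 1 alone at week 14, whose spread was assumed to be that of the other groups, none of the 9 genes was called, and the difference of Cd274 over week 6 was 0.26. The 4 calls of week 14 were also lost with RIN as a covariate (adjusted p = 0.959 for Icos, Pdcd1, Cd274 and Pdcd1lg2, edgeR), with cage as a factor (0.159 for each) and when only the groups compared were fitted (0.130 for each). They held with each library left out in turn, at adjusted p of up to 0.0492 (edgeR). The scaling mattered as well. In place of TMM, scaling to library size alone moved the median of all genes to -0.56, and log2(TPM + 0.1) moved it to -1.15. Under library size alone Foxp3 turned to -0.10 and Havcr2 to -0.45, and under log2(TPM + 0.1) Foxp3, Il2ra, Lag3, Tigit and Havcr2 all lay below 0. Icos, Pdcd1, Cd274 and Pdcd1lg2 stayed above 0 at week 14 under each of these settings, and under log2(TPM + 0.1) Pdcd1 and Pdcd1lg2 were the genes called.

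**Figure D3:**
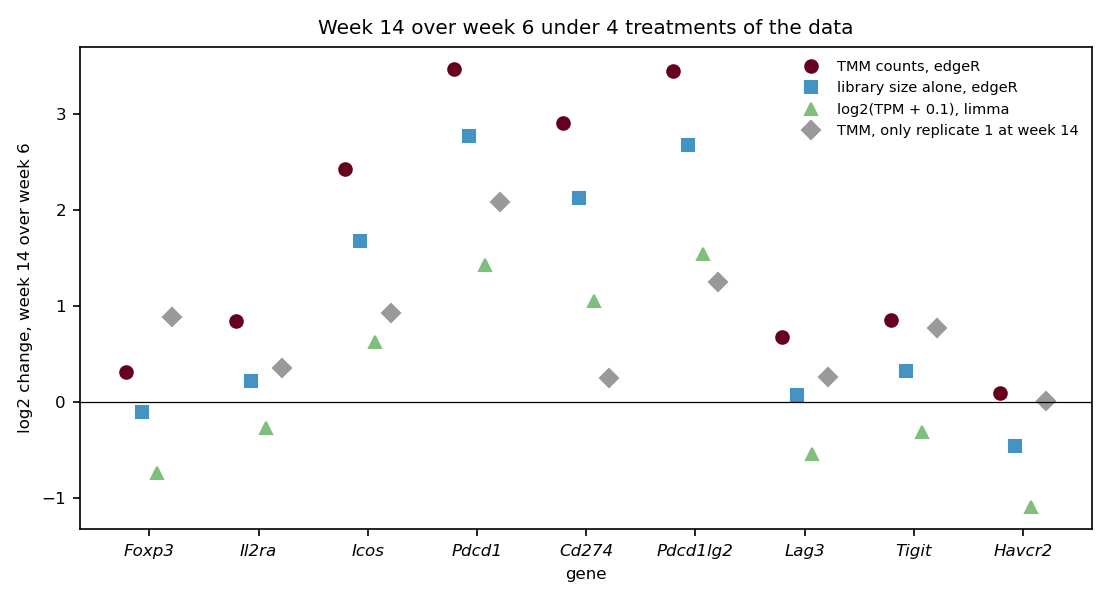
Log2 change of week 14 over week 6 in Il10KO colon for 9 genes with TMM, with library size alone, with limma on log2(TPM + 0.1), and with replicate 1 as the only library of week 14. Icos, Pdcd1, Cd274 and Pdcd1lg2 are above 0 in all 4, while Foxp3 and Havcr2 fall below 0 under 2 of them.

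RNA of the T cell receptor complex was also higher on average after week 6, and Cd3g, one of its chains, was called at week 10 (1.79 ± 0.60, adjusted p = 0.0426, edgeR). The summed TPM of Cd3d, Cd3e and Cd3g, the invariant chains of the T cell receptor, was 12.0 ± 2.7 in Il10KO for week 6, 24.8 ± 14.2 for week 8, 24.6 ± 7.8 for week 10, 29.8 ± 6.2 for week 12 and 25.7 ± 9.7 for week 14, against 10.5 ± 1.7 in the wild type (SD, n = 3 each). Per 100 TPM of CD3, Foxp3 had 2.63 ± 1.22 TPM for week 6, 3.16 ± 2.57 for week 8, 1.04 ± 0.48 for week 10, 1.10 ± 0.11 for week 12 and 0.927 ± 1.24 for week 14, against 2.84 ± 1.34 in the wild type. All libraries of weeks 10 and 12 lay below all of week 6, and the share of all genes that did so on this scale was not counted. A permutation test of the Foxp3 to CD3 ratio over the 5 ages, with 15 libraries and 100000 resamples, gave p = 0.151, which missed the threshold. Without week 14 replicate 1 the permutation test gave p = 0.0120, and the other settings gave 0.0715 to 0.686. The highest of these was with Cd4 in place of CD3 as the denominator. Mean Cd4 was 5.66 TPM at week 6 and 3.44 TPM at week 10 in Il10KO colon.

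Pdcd1 behaved differently from Lag3 on this scale. Pdcd1 had 1.05 ± 0.10 TPM per 100 TPM of CD3 for week 6, 3.01 ± 1.15 for week 8, 4.06 ± 0.53 for week 10, 4.33 ± 0.82 for week 12 and 2.18 ± 0.85 for week 14, against 2.62 ± 1.65 in the wild type. Lag3 had 14.5 ± 2.9 for week 6, 9.07 ± 0.99 for week 8, 7.39 ± 1.65 for week 10, 5.05 ± 0.12 for week 12 and 6.00 ± 5.29 for week 14, against 18.8 ± 3.3 in the wild type. Every library after week 6 was above week 6 for Pdcd1 and below it for Lag3. Without division by CD3, mean Lag3 was 1.75 TPM at week 6. From week 8 to week 14 it was 2.18, 1.74, 1.51 and 1.22 TPM. That of Pdcd1 was 0.124, then 0.838, 1.03, 1.26 and 0.504 TPM. Mean CD3 was 12.0 TPM at week 6 and 24.6 to 29.8 later, which lowers the ratio of a gene whose TPM stays level. The share of all genes placed in these ways was not counted. Havcr2, much of whose RNA can come from myeloid cells, had 17.0 ± 1.7 for week 6, 9.55 ± 6.92 for week 8, 5.47 ± 1.46 for week 10, 3.68 ± 0.56 for week 12 and 5.23 ± 5.61 for week 14, with 14.4 ± 3.5 in wild-type colon. Week 8 replicate 1, at 17.5, lay within the range of week 6 for Havcr2, and all other later libraries lay below it. Icos, with 9.64 ± 3.71 at week 10, against 7.49 ± 2.98 at week 6, overlapped between these ages. No test was made of the ratios other than that of Foxp3.

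**Figure D4:**
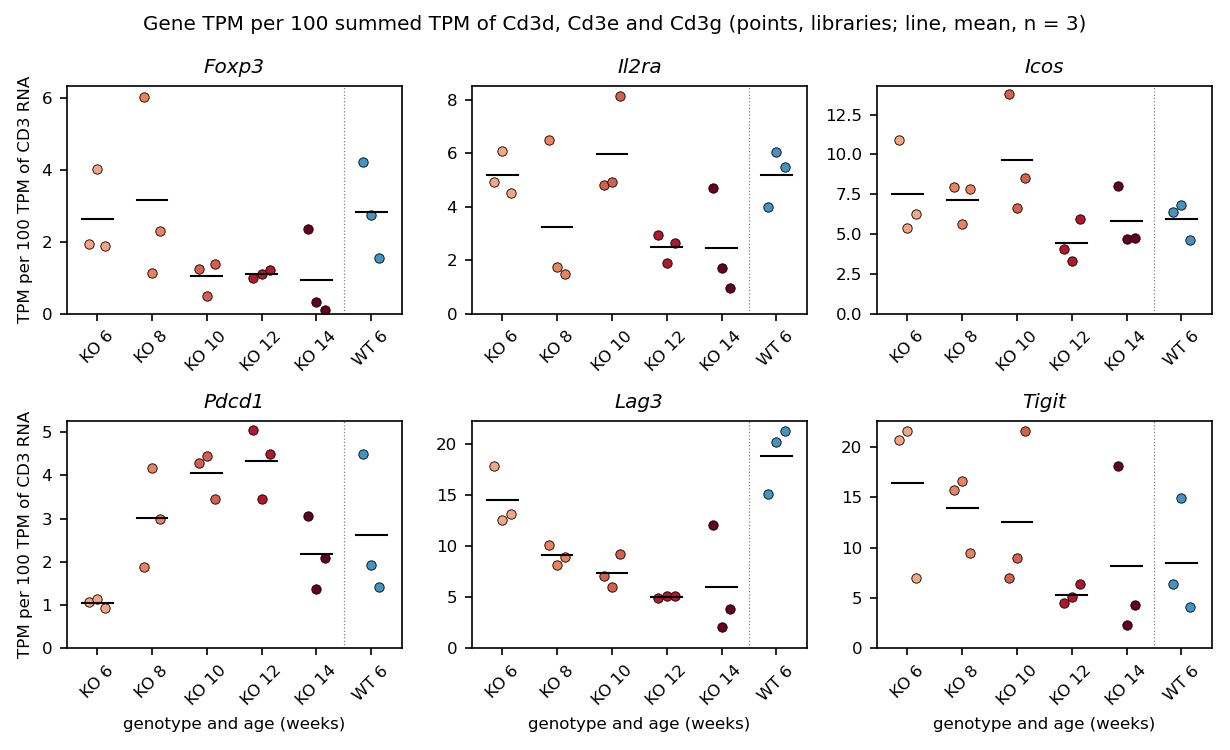
TPM of 6 genes per 100 summed TPM of Cd3d, Cd3e and Cd3g in each library, by genotype (KO, Il10KO; WT, wild type) and age in weeks. Points are libraries and lines are means (n = 3). Pdcd1 per CD3 is above week 6 in all libraries of weeks 8 to 14, and Lag3 per CD3 is below week 6 in all of them. The share of all genes placed in these ways was not counted.

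Marker RNA of several cell types also differed between week 6 and week 10, when 24% of all genes were called, 14.6% higher and 9.48% lower. Of 14 T cell markers, 5 were called higher for week 10, and their summed TPM was 45.7 to 83.3 for week 10, against 29.8 to 50.4 for week 6. Of 5 NK cell markers, 3 were called higher, with 7.95 to 24.4 summed TPM at week 10, against 2.12 to 5.07 at week 6. Macrophage and monocyte markers had 3 of 8 called higher, with 104 to 168 against 65.5 to 117 summed TPM; the differences of the other 5 were below 0, and the median of the 8 was -0.20. Colon epithelium markers had 1 called higher and 1 lower of 9, with 1932 to 3466 against 4755 to 5216. Of 8 regulatory T cell markers, which include the listed genes Foxp3, Il2ra and Ctla4, 6 were in the gene table. At week 10, 2 of the 6 were called higher, 1 of them Il2ra. The differences of 2 others were below 0, Foxp3 among them, and the median of the 6 was 0.60. Their summed TPM was 7.70 to 10.8, against 5.90 to 9.40. Of 6 neutrophil markers, 5 were called higher at week 10, with 1247 to 20073 against 345 to 411 summed TPM. Of 8 dendritic cell markers none was called, with 22.4 to 23.3 against 30.2 to 48.8 summed TPM. No marker in the gene table averaged 0 TPM in a group. The part of these cell types in the changes of the listed genes was not tested.

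Lists of related genes were counted beside them. At week 10, 24% of all genes were called, 14.6% higher and 9.48% lower. Of 26 genes of the interferon gamma pathway, which induces PD-L1, 19 were called higher at week 10 and none lower, with a median difference of 3.28. Ifng itself was called, with a mean of 8.81 CPM at week 10, against 0.0308 CPM at week 6, where its counts were too few for a fold. Ido1, which degrades tryptophan, was called at 9.06 ± 1.34 over week 6. Nlrc5, the activator of MHC class I genes, had a mean of 31.9 CPM at week 10, against 1.99 CPM at week 6, and was called too. Of 35 other co-stimulatory and checkpoint genes, 12 were called higher and none lower at week 10, with a median of 1.24. Btnl2, a butyrophilin-like inhibitor of T cells, had a mean of 24.2 CPM at week 10, against 0.536 CPM at week 6 (5.48 ± 0.81, adjusted p = 0.00209, edgeR), Tnfrsf14, a ligand of the inhibitory receptor BTLA, rose by 2.00 ± 0.45, and Cd47, which restrains phagocytosis, by 1.88 ± 0.49. Of 34 genes tied to regulatory T cells, 9 were called higher and 4 lower at week 10, with a median of 0.25. Tnfrsf1b, the TNF receptor 2, was at 2.60 ± 0.37, Prdm1, the transcriptional repressor BLIMP-1, at 2.87 ± 0.44, and Socs2, a suppressor of cytokine signalling, at -1.46 ± 0.27, each called.

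Of 22 CD3 and T cell genes, 7 were called higher and none lower at week 10, with a median of 1.28; Cd8a, the co-receptor of cytotoxic T cells, was at 2.87 ± 0.56 (adjusted p = 0.00607, edgeR). Of 14 genes of interleukin 2 receptor signalling, 5 were called higher and none lower, with a median of 0.23. Socs3 at 4.91 ± 0.83 and Socs1 at 5.82 ± 1.03, feedback inhibitors of cytokine receptors, were called, as was Il15ra at 2.73 ± 0.57, the receptor chain that presents interleukin 15. Of 25 regulators of T cell exhaustion and effector function, 5 were called higher and 1 lower, with a median of 0.10. In all, 6 of these 25 were called, beside 24% of all genes. Tox, the transcription factor linked to exhausted T cells, was the gene called lower, at -1.80 ± 0.42 (adjusted p = 0.0131, edgeR), and Cd38, an NAD-consuming enzyme of activated cells, was called higher at 2.34 ± 0.36. Without week 10 replicate 1, when 6.68% of all genes were called, the counts of week 10 were 18 of the interferon gamma list, 3 of the co-stimulatory list, 4 higher and 3 lower of the regulatory T cell list, 1 of the T cell list, 5 of the interleukin 2 list and 2 higher of the exhaustion list. At week 14 the 6 lists had 3 to 15 genes called higher, beside 24.5% of all genes. The median differences of the lists ran from -0.07 to 1.39 at week 14. Without the 2 libraries of low RIN, which leaves 1 library at week 14, these medians ran from -0.03 to 0.51.

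A comparison within ages with the inflammation marker lipocalin, given in ng/g in the labels of all 15 Il10KO mice, gave no call. Lipocalin ran from 2.27 to 4.72 ng/g at week 6 and from 2044 to 4289 ng/g at week 14. The fit uses only differences between mice of one age. It therefore cannot address a relation to lipocalin over the course of the colitis. In the 15 Il10KO libraries with age as a factor, the slopes of the 9 genes on log10 lipocalin ran from -0.64 ± 1.25 for Cd274 to 1.09 ± 1.21 for Pdcd1, and edgeR called none of them, with 0% of all genes called. None of the 9, and 117 of all genes, had an unadjusted p under 0.05, and DESeq2 and limma called none. The smallest adjusted p over all genes was 0.146 (edgeR).

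Mice shared cages. The 3 wild-type mice were housed together and apart from the Il10KO mice, and genotype and cage therefore cannot be told apart. Cages A, B and F each held a mouse of week 6 and at least 1 older mouse, which gave 6 differences within a cage, with some mice of week 6 used more than once. Il2ra, Icos, Pdcd1, Cd274 and Pdcd1lg2 were higher in the older mouse in 6 of 6, with medians of 0.62, 1.02, 2.67, 2.90 and 2.09 on the log2 scale. Foxp3 and Tigit were higher in 5, Havcr2 in 4 and Lag3 in 3. These differences mix weeks 8 to 14, and the share of all genes higher in 6 of 6 was not counted. With cage as a factor in the model, Pdcd1 and Cd274 were the 2 of the 9 genes called at week 10 (adjusted p = 0.0392 and 0.0422, edgeR), with 3.26% of all genes called.

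Among 13098 or 13099 genes with a mean log2 CPM of at least 0, the level of Cd274 across the 18 libraries was most like that of Inpp1, Olfr56 and Ifi47, with Pearson r of 0.98 each. The nearest genes to Pdcd1lg2 were Klrk1, which encodes the NK and T cell receptor NKG2D (0.96), Gsap (0.95) and Fcgr4, an Fc receptor of myeloid cells (0.95). Icos was most like Gpr171 (0.96), Tm4sf20 (0.95) and Eaf2 (0.95), and Pdcd1 most like Ciao3, Rnaseh1 and Rdh16 (0.94 to 0.95). Lag3 was nearest to Ncf4, a subunit of the phagocyte oxidase (0.90), Rac2 (0.89) and Ptpn7 (0.89). Tigit was nearest to Derl3 (0.89), the chemokine receptor Ccr10 (0.86) and Cxcr3 (0.81), and Il2ra to Serpina3n (0.89), Ifi203 (0.86) and Mmp25 (0.85). Havcr2 was nearest to Tlr7, an endosomal RNA sensor (0.86), Xcr1, a receptor of cross-presenting dendritic cells (0.83), and the macrophage gene Cd68 (0.82). For Foxp3 the closest were Tlr8 (0.72), Scn2b (0.68) and Cd300ld3 (0.68), the weakest best match of the 9 genes. These values describe 18 libraries that share the same age groups, depth and RNA quality.

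The transcript tables show which models carry the counts. Cd274, Pdcd1 and Tigit had 1 transcript each. The leading transcripts of Icos, Havcr2, Il2ra, Lag3 and Pdcd1lg2 carried 98.0%, 97.8%, 97.9%, 99.8% and 93.8% of the estimated counts of their genes over all libraries. Foxp3 counts were divided among 10 transcripts, of which the leading one carried 60.4%. Foxp3, at chrX:7573644-7595245, overlaps Ppp1r3f, Ccdc22, Flicr and Gm36995, and Cd274 and Pdcd1lg2 each overlap an antisense gene, AC119228.1 and A930007I19Rik. Il2ra, Icos and Ctla4 each overlap a gene on their own strand, Gm37881, Gm37039 and Rpl18-ps1. Whether the reads were assigned by strand is not stated, so reads from the overlapping genes cannot be told apart from those of the listed genes where exons coincide. Flicr is on the strand of Foxp3, so for it, Gm37881, Gm37039 and Rpl18-ps1 assignment by strand would not separate the reads.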

How the data were processed

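Each library was made from polyadenylated RNA of a distal colon biopsy and read as paired ends, per the labels' protocols. The submitters' processing notes name FastQC, kallisto and the mm10 build, with versions not given in the sources used here. The deposited gene tables hold estimated counts and TPM summed per gene symbol, and the deposited transcript tables hold the estimated counts and TPM of each transcript. The estimated counts were rounded to whole numbers. All genes in the gene tables total at least 50 counts. No row without a gene name entered a test.

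Counts were tested with edgeR 4.0.16 (R 4.3.3), using TMM scaling, filterByExpr (16300 of 16321 genes kept), 1 mean per group and a quasi-likelihood F-test on 18 libraries. P-values were adjusted by Benjamini-Hochberg over all genes tested, with a threshold of 0.05. Log2 CPM used a prior count of 2. The SE was the absolute log2 change divided by the square root of F. The slope on log10 lipocalin used the 15 Il10KO libraries with age as a factor. Alternatives used DESeq2 1.42.0, limma 3.58.1 and the settings given at the end. Ratios to CD3 and the permutation test of the Foxp3 ratio used NumPy 2.4.6 and pandas 2.3.3, and figures used matplotlib 3.10.9, on Python 3.11.15. The edgeR test was checked on simulated counts.

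Transcripts were named from GENCODE on GRCm38, in which 97.2% of 119414 matched, and promoters were taken from RefSeq on GRCm38.p6. Library totals limit the precision of the scarce genes, and intervals and floors cover counting error only. Named list genes were chosen among the 4 of each list with the smallest p in the test across ages, and the genes most like each member were the 3 of highest Pearson r of log2 CPM. The members and lists were chosen with earlier results of these data known.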

Additional observations from a re-analysis of the deposited data

How the results depend on the processing

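Of the values of single genes, 539 under the other settings kept their direction and their side of the threshold, 43 lost a call, 23 gained one and 23 turned sign; with 1 library left out the numbers were 894, 49, 8 and 21. The cause of these differences was not tested.

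The number of the 9 genes called is given here with the share of all genes called in parentheses. The number and the share did not always move together. At week 8 it was 2 with DESeq2 (1.42%) and with RIN as a covariate (1.18%), and 1 without the libraries of low RIN (0.821%) or without week 14 (0.828%), and it ran from 0 to 1 with 1 library left out. At week 10 it was 3 with limma on log2(TPM + 0.1) (12.4%) and 2 with cage as a factor (3.26%), and ran from 2 to 5. At week 12 it was 3 with DESeq2 (15.5%), 2 with library size alone (1.22%), with limma on log2(TPM + 1) (4.07%) and with the replicate block (1.52%), 4 with RIN (35.3%), with only the groups compared (59%), without the libraries of low RIN (40.8%) and without week 14 (41.3%), and 0 with cage (0.0123%), and ran from 0 to 4. At week 14 it was 1 and 2 with limma at pseudocounts of 1 (60%) and 0.1 (61.8%), and 0 with RIN, with cage, with only the groups compared and without the libraries of low RIN (0% each), and was 4 with each library left out. For week 10 over week 8 it was 1 with DESeq2 (5.56%), with RIN (11.8%), without the libraries of low RIN and without week 14 (21.6% each), and ran from 0 to 2. For week 14 over week 12 it ran from 0 to 2, the highest without week 14 replicate 1 (47.2%). Across ages it was 2 with library size alone (8.9%), 3 with limma on log2(TPM + 0.1) (37.8%), with the replicate block (20.9%) and with only the groups compared (13.2%), and 0 with cage (0.00613%), and ran from 0 to 5. The p of the Foxp3 to CD3 ratio ran from 0.0120 to 0.272 with 1 library left out.

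The labels do not say whether replicate numbers pair the libraries. Over 45 pairs of equal number r ran from -0.615 to 0.475, with 13 over 0.1. Pairs of unequal number were not compared, so these values cannot decide it. The replicate block turned Havcr2 at week 8 to -0.00702.

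These differences turned sign, none of them called. Against wild type, Foxp3 was at 0.0102 and 0.0539 with limma (pseudocounts 1 and 0.1). At week 8, Havcr2 was at -0.0392 and -0.115 and Il2ra at -0.0290 (0.1). At week 12, Lag3 was at -0.12 and -0.18, and Tigit at -0.11 and -0.15. At week 14, the values were -0.15 and -0.74 for Foxp3, -0.63 and -1.09 for Havcr2, -0.0845 and -0.26 for Il2ra, -0.32 and -0.54 for Lag3, and -0.18 and -0.31 for Tigit. Library size alone gave -0.10 for Foxp3 and -0.45 for Havcr2, and RIN gave -0.0352 for Havcr2. With 1 library left out, the difference from wild type ran from -0.64 to 0.19 for Cd274, -0.54 to 0.10 for Foxp3, -0.0936 to 0.38 for Il2ra, -0.28 to 0.16 for Lag3 and -0.64 to 0.28 for Pdcd1lg2. Week 8 gave -0.13 to 0.45 for Havcr2, -0.16 to 0.52 for Il2ra and -0.12 to 0.64 for Lag3. Week 10 gave -0.43 to 0.22 for Foxp3 and -0.23 to 0.14 for Havcr2, week 12 -0.0260 to 0.57 for Foxp3, and week 14 -0.17 to 0.79 for Foxp3 and -0.0909 to 0.27 for Havcr2.

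Library size alone put the median of all genes at -0.26 at week 10 and -0.56 at week 14, against 0.01 and -0.06 with TMM. Cage could not be fitted for Il10KO against wild type, the fit without week 14 gives no value for week 14, and the slope has no fit of only the groups compared. Foxp3 and Ctla4 are limited by depth.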
